A study of Homo sapiens with 28 samples.

Results

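Interferon-stimulated genes were followed in 4 human liver tumour lines, in dish culture (in vitro) and in tumours raised in fertilised hen eggs on the chick chorioallantoic membrane (in ovo). The genes were taken from a list of 41 symbols, matched to the gene symbols of the deposited table. Of these, 40 had a row among 18961 amplicons, and the other listed gene was not analysed here. HepG2 derives from a hepatoblastoma, while PLC/PRF/5, HuH7 and Hep3B derive from liver carcinomas. Cultures were sequenced as 3 libraries per line and tumours as 4, for a total of 28. For the in ovo groups, cells were grafted on white leghorn eggs at embryonic day 9 and the tumours removed at day 18. The labels name no added interferon or other agent in any group. Whether a replicate is its own culture or egg is not stated. The p values given here therefore reflect only the scatter among these libraries, which may be technical. The chick host supplies its own stroma and blood cells, and each line is a single established line.

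Type I and type III interferons are secreted by cells that detect viral nucleic acids. They bind IFNAR1 with IFNAR2, or IFNLR1 with IL10RB, and activate the kinases JAK1 and TYK2. STAT2 then joins IRF9 in a complex that binds the interferon-stimulated response element of target promoters. The targets include antiviral effectors, nucleic acid sensors, the ubiquitin-like protein ISG15 with its enzymes, and the pathway's own factors. Liver carcinoma lines are known to carry this pathway to differing degrees, and many of its genes also have a basal level without added interferon.

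Levels are in CPM, read counts scaled to a common library total, after TMM scaling, a correction for differences in library composition. Cultures had 6205368 to 8662998 recovered reads and tumours 6085750 to 15086465, so that 3 reads stood for 0.199 to 0.493 CPM before scaling. Differences are in ovo minus in vitro as log2(CPM + 1), and this offset shrinks the differences of weakly read genes. A gene was called at a limma p value under 0.05 after Benjamini-Hochberg adjustment over 13100 tested genes. Scaling by total counts alone moved the median of all genes by -0.82 in Hep3B and by -0.2 to -0.22 in the other lines. The in ovo libraries numbered 3 had the lowest correlation with the rest of their group in every line. Of 392 olfactory receptor amplicons, whose genes this tissue should lack, 2.04 to 7.91% had a read in each culture library. In the in ovo libraries the share was 5.61 to 51.8%. How far such background reads add to low in ovo levels was not tested. Differences also rose with the GC content of the amplicon across all tested genes, with Spearman's rho from 0.274 in HepG2 to 0.505 in HuH7 (across genes, which are not independent). The hepatoma markers ALB and TTR had no read in the PLC/PRF/5 cultures. In PLC/PRF/5 in ovo libraries, 54 genes read in HepG2 but hardly in PLC/PRF/5 cultures were compared with their HepG2 in ovo level. Their median share was 0.982 to 1.78% by library, with single genes above and below it. In Hep3B in ovo libraries, 11 such HuH7 genes had median shares of 0.0927 to 1.67%. All 40 calls given below were kept when these median shares were subtracted. Median shares of other pairs of lines were not subtracted. Among them were HepG2 genes in Hep3B in ovo libraries (0.249 to 0.961%). In PLC/PRF/5 in ovo libraries they were those of Hep3B (0.784 to 1.4%) and HuH7 (0.31 to 0.763%). Among leukocyte markers, CD3E had no read in any group except HuH7 in ovo, but other markers were read. The most read marker in Hep3B was CD14 in vitro (mean of 20.4 CPM) and CD68 in ovo (18.1 CPM). In PLC/PRF/5 it was CD68, at 22.2 CPM in vitro and 34.4 CPM in ovo. In HuH7 it was CD14, at 37.6 CPM in vitro and 5.56 CPM in ovo. The summed leukocyte list read 387 to 404 CPM in HepG2 cultures, where LYZ alone had a mean of 381 CPM. In HepG2 in ovo the list read 9.66 to 67.9 CPM, with a mean of 37.3 CPM for LYZ. Of the 10 markers on the list, 6 were under 1 CPM in HepG2 cultures and 6 in HepG2 in ovo. The part of this list in the results was not tested. Fewer cells with a transcript and less of it per cell cannot be told apart in bulk libraries.

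Each gene was read through 1 short amplicon, and the sequence decides which transcripts a value counts. All 40 amplicons, 75 to 259 bases long, matched a GENCODE 29 transcript on GRCh38, 35 of them within coding sequence. 20 lay within 1 exon. The amplicons of 5 genes on which the results below turn are given 5′ to 3′ as deposited. They are IRF9 at chr14:24164797-24164938 (plus strand, exon 7), UBE2L6 at chr11:57552489-57554512 (minus strand, exons 3 and 4), OAS3 at chr12:112967474-112967585 (plus strand, exon 13), IFIT3 at chr10:89339242-89339401 (plus strand, exon 2) and GBP2 at chr1:89121203-89121834 (minus strand, exons 2 and 3). All 5 lie in coding sequence.
IRF9: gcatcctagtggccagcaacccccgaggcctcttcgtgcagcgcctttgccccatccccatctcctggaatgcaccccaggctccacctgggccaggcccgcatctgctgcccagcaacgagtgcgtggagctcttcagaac
UBE2L6: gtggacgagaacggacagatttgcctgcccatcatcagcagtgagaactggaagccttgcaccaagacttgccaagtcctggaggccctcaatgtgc
OAS3: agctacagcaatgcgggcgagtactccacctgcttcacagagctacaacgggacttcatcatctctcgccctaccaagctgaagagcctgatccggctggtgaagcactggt
IFIT3: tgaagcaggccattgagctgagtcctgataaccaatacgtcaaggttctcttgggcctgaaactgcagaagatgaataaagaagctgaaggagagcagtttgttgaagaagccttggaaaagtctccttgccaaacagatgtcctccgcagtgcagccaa
GBP2: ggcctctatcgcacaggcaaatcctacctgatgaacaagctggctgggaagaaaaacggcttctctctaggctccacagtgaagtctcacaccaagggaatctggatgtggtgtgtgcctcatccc
The IRF9 amplicon also matches the overlapping locus AL136295.5, the IFITM1 amplicon an IFITM2 transcript and the USP18 amplicon USP41, so these 3 values may include reads of the other locus. The IFITM2 and IFITM3 amplicons are identical at 80.2% of aligned bases, and no other pair compared within the IFIT, OAS, MX and IFITM families reached that share.

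The 4 lines differed in their basal levels of these genes. Of the 40 genes, 34 passed the expression filter. The other 6 (IFIT5, OAS2, IFI44, IFI44L, RSAD2 and SAMD9) stayed between 0 and 1.34 CPM in every library. Among cultures, 32 of the 34 differed between lines, all but IFI6 and IRF1, where 71.5% of all tested genes did. PLC/PRF/5 had the highest mean of the 4 lines in vitro for 20 genes, HepG2 for 10, HuH7 for 3 and Hep3B for 1. The share of all tested genes with their highest culture mean in each line was not taken. OASL and SAMD9L had no read in cultures outside PLC/PRF/5, and XAF1 none outside HepG2. Such genes passed the filter only through that line and add to its count. Against the mean of the other 3 lines in vitro, 21 genes were higher and 8 lower in PLC/PRF/5, while HepG2 had 14 higher with 6 lower, Hep3B 2 higher with 22 lower, and HuH7 4 higher with 21 lower. Over all tested genes the shares called higher were 24.5, 24.1, 19.5 and 23.6% in that order of lines, and the shares called lower 30.5, 26.1, 21.1 and 20.6%.

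BST2, HERC5, OASL and IFIT2 were among the genes higher in PLC/PRF/5 cultures than in the mean of the other lines, by 5.97, 4.07, 3.28 and 3.8 on the log2 scale. BST2, which encodes tetherin, a membrane protein that holds budding virus at the cell surface, stood at 469 ± 64.8 CPM (SD, n = 3) in PLC/PRF/5 cultures and at 181 ± 4.93 CPM (n = 3) in HepG2. It was at 0.952 ± 0.149 CPM in Hep3B and 0.177 ± 0.0592 CPM in HuH7 (n = 3 each). HERC5, the ligase that attaches ISG15 to new proteins, was at 20.7 ± 0.482 CPM (n = 3) in PLC/PRF/5 and under 0.61 CPM in every culture of the other lines. OASL and IFIT2 were likewise read at 6.71 to 11.1 and 14.5 to 17.1 CPM in PLC/PRF/5 cultures, against at most 0.668 CPM for either gene in any culture of the other lines. UBE2L6, the enzyme that passes ISG15 to its ligases, ran the other way, at 2.3 ± 0.274 CPM (n = 3) in PLC/PRF/5 and 71.5 ± 2.98 CPM (n = 3) in HepG2. GBP2, a guanylate-binding GTPase, and MX2, a dynamin-like GTPase, were also lower in PLC/PRF/5 than in the mean of the other lines, by 2.45 and 2.18 on the log2 scale.

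**Figure D1:**
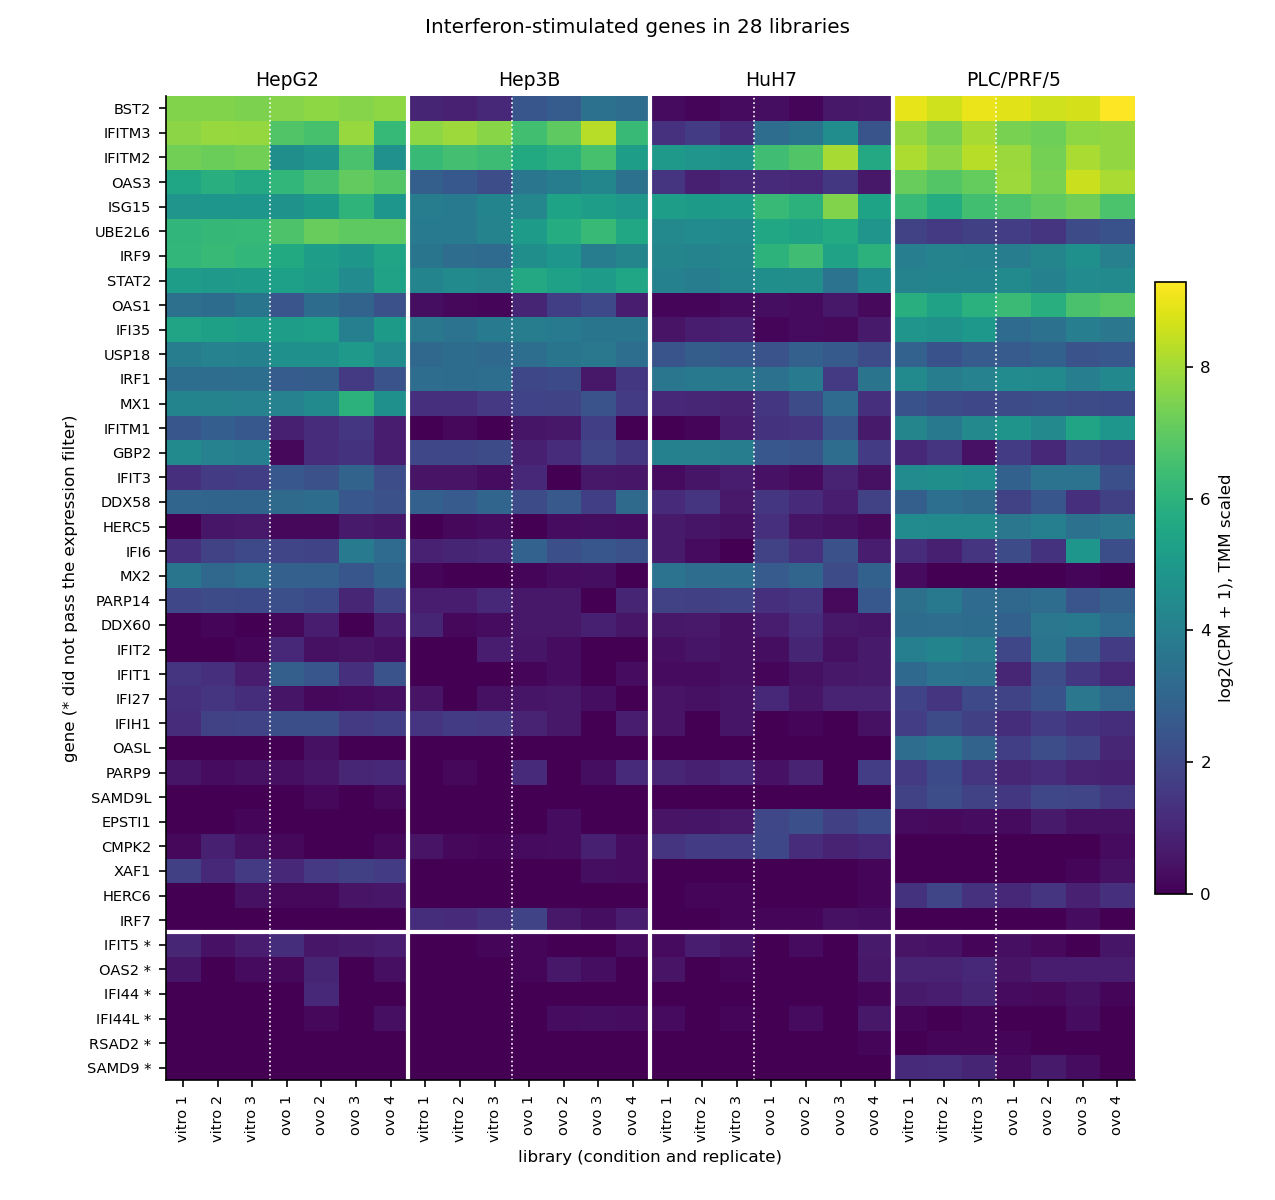
Level of each of the 40 genes (rows) in each of the 28 libraries (columns, grouped by line, in vitro left of the dotted line and in ovo right of it), as log2(CPM + 1) after TMM scaling. PLC/PRF/5 carries the highest BST2 and OAS3 levels, and the 6 genes marked with an asterisk, which did not pass the expression filter, stay near 0 throughout.

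In ovo, the genes did not move as a block. In HepG2, 5 of 34 were higher (IFIT1, IFIT3, OAS3, USP18 and UBE2L6) and 6 lower (MX2, IFI27, IRF9, IFITM1, IFITM2 and GBP2). Over all tested genes of that line, 12.1% were called higher and 13% lower (25.1% in either direction). Hep3B had 8 higher (ISG15, OAS1, OAS3, IFI6, STAT2, IRF9, BST2 and UBE2L6) and 2 lower (IFIH1 and IRF1), against 24.6% and 27.4% of all tested genes (52% in either direction). HuH7 had 8 higher (ISG15, MX1, IRF9, IFITM1, IFITM2, IFITM3, EPSTI1 and UBE2L6) and 2 lower (MX2 and GBP2), against 23.6% and 19.8% (43.4%). PLC/PRF/5 had 2 higher (OAS3 and IFI27) and 7 lower (IFIT1, IFIT2, IFIT3, OASL, IFI35, DDX58 and HERC5), against 11.9% and 5.61% (17.5%). As shares of the 34 genes, the calls higher came to 14.7, 23.5, 23.5 and 5.88% in HepG2, Hep3B, HuH7 and PLC/PRF/5, and the calls lower to 17.6, 5.88, 5.88 and 20.6%. The median difference of the 34 genes was 0.01, 0.13, 0.15 and 0 in the same order, and that of all tested genes -0.01, -0.05, 0.01 and 0.07.

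At least 1 line gave a call for 26 of the 34 genes, where 76.4% of all tested genes had one. 15 were called in 1 line, 8 in 2, and 3 (OAS3, IRF9 and UBE2L6) in 3. OAS3 and UBE2L6 were higher in all 3 of their lines, where 7.55% of all tested genes were called higher in 3 or more lines and 4.55% lower. Limma called the other 8 (DDX60, IRF7, HERC6, XAF1, SAMD9L, PARP9, PARP14 and CMPK2) in no line. Of these, DDX60 and XAF1 were also not called under any alternative run. PARP9 in Hep3B was called by edgeR (3.68, adjusted p = 0.0131) and by DESeq2 (3.99, adjusted p = 0.00926). These values rest on few reads, at 0, 0.136 and 0 CPM in vitro and 1.17, 0, 0.259 and 1.16 CPM in ovo. The groups overlapped, and no Hep3B tumour had more than 11 PARP9 reads. HERC6 in PLC/PRF/5 was called with DESeq2's size factors (-0.47, limma adjusted p = 0.036). PARP9 and HERC6 were named after their values were seen. The interaction between line and condition was called for 21 of 34, against 41.8% of all tested genes. The response of a line differed from the mean response of the others for 12 genes in HepG2 (20.3% of all tested genes), 11 in PLC/PRF/5 (17.3%), 8 in Hep3B (25.6%) and 6 in HuH7 (19.6%). For 6 genes (IFIT1, IFIT3, IFI27, IRF9, IFITM1 and IFITM2) a call in one line was opposed by a call in another, and 8.87% of all tested genes had such opposed calls. The in vitro and in ovo libraries overlapped in the calls of IFIT1 in HepG2, IFITM1 in HuH7 and IFI27 in PLC/PRF/5.

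**Figure D2:**
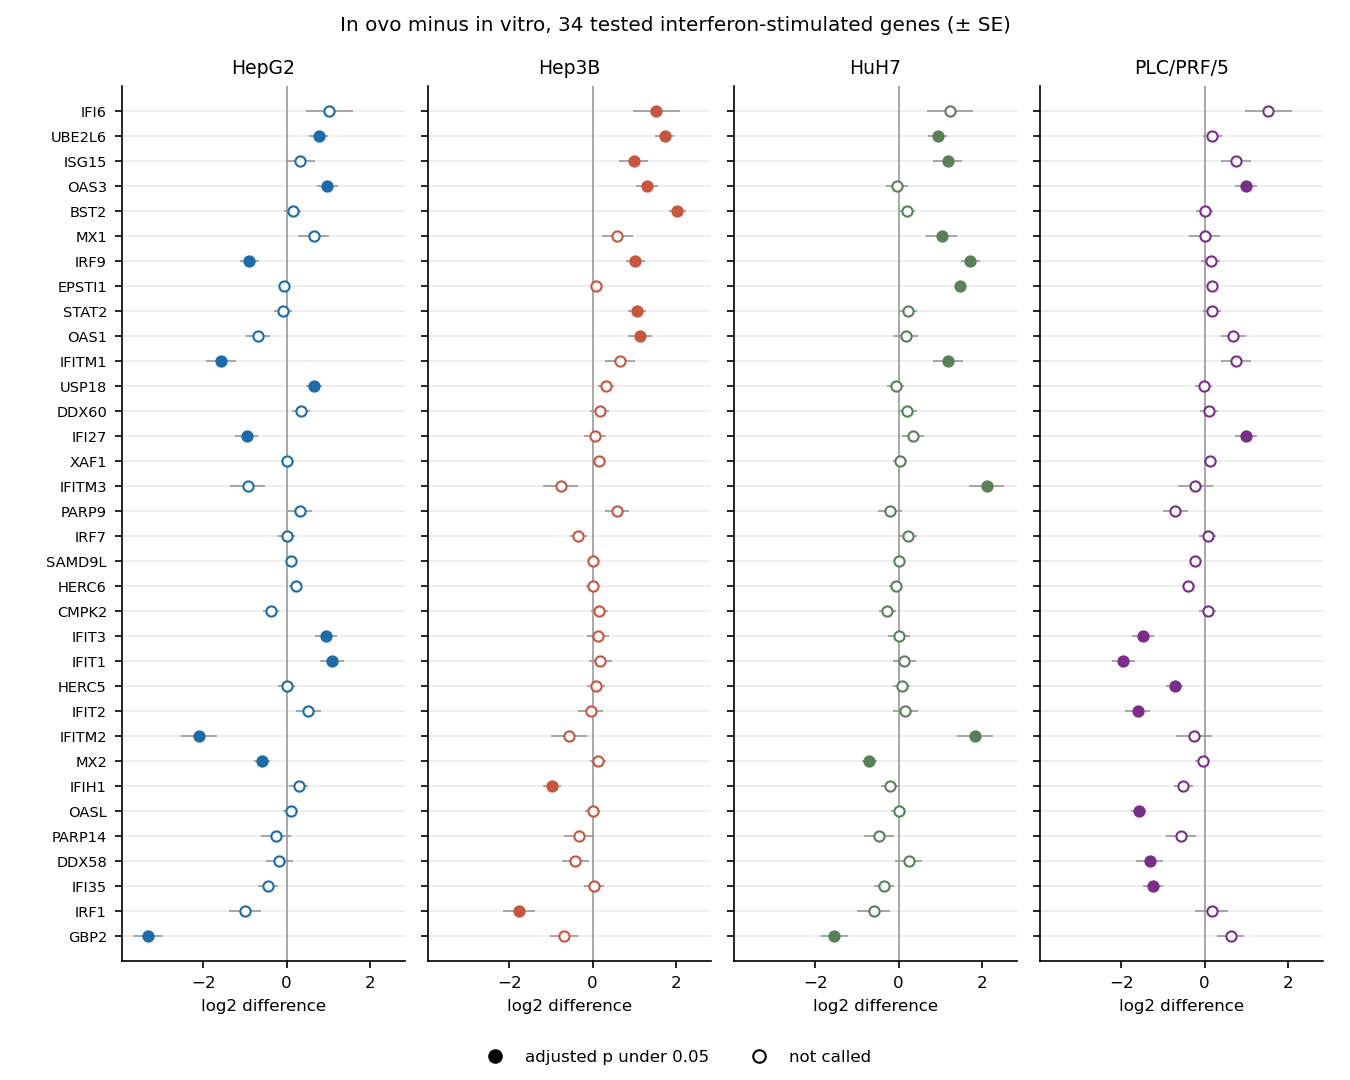
Difference in ovo minus in vitro on the log2(CPM + 1) scale for the 34 tested genes (rows, ordered by their mean over lines) in each line, with bars of ± 1 SE and filled points for an adjusted p under 0.05. UBE2L6 is above 0 and called in HepG2, Hep3B and HuH7, while IFIT1 and IFIT3 are above 0 in HepG2 and below 0 in PLC/PRF/5.

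Among the pathway's own factors, IRF9 moved in opposite directions. IRF9 is the DNA-binding subunit of the complex that holds STAT2. It read 69.7, 76 and 70.5 CPM in HepG2 cultures and 48.7, 36.2, 29.4 and 41.6 CPM in HepG2 in ovo. Every HepG2 tumour was below every culture, a fall of 0.89 ± 0.23 (SE) on the log2 scale with a limma adjusted p of 0.00575. In HuH7, cultures read 17.8, 17 and 18.2 CPM and tumours 63.8, 85.8, 39.8 and 62.2 CPM. Every HuH7 tumour was above every culture, by 1.72 ± 0.23 (limma adjusted p = 2.57e-06). Hep3B tumours (23.6, 28.2, 14.5 and 17.8 CPM) also lay above Hep3B cultures (11.3, 9 and 8.57 CPM), by 1.02 ± 0.23 (limma adjusted p = 0.000899). That call was lost under total counts alone (0.11, limma adjusted p = 0.799), and with GC content and length trends removed (0.55, limma adjusted p = 0.0984). The HuH7 value was 1.03 with those trends removed. PLC/PRF/5 showed no call (0.15 ± 0.23, limma adjusted p = 0.75), with tumours of 14 to 24.3 CPM around cultures of 14.8 to 16.7 CPM. The interaction of IRF9 had a limma adjusted p of 3.36e-06.

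STAT2, the partner that carries the activation domain of the complex, rose in Hep3B. Cultures read 17.5, 20.6 and 18.7 CPM and tumours 48.1, 39, 33.9 and 43.2 CPM, without overlap (1.07 ± 0.22, limma adjusted p = 0.000386; 0.13 and adjusted p = 0.763 under total counts alone). With GC content and length trends removed it was 0.33 (limma adjusted p = 0.365). IRF1, a transcription factor induced by type I and type II interferon, fell in the same line. Its cultures read 9.1, 8.73 and 9.35 CPM, and its tumours 3.09, 3.27, 0.518 and 1.85 CPM, a fall of 1.77 ± 0.39 (limma adjusted p = 0.000677). IRF1 levels in HepG2 also did not overlap, at 8.88 to 9.34 CPM in vitro and 1.97 to 5.6 CPM in ovo, but the difference of -1 ± 0.39 missed the threshold (limma adjusted p = 0.064). Without the in ovo libraries numbered 3 it was -0.7 with a limma adjusted p of 0.00167. IRF7, the factor that amplifies interferon production, was read above 1 CPM only in Hep3B, at 1.23 to 1.56 CPM in vitro and 0.259 to 2.77 CPM in ovo, and was not called there. Without Hep3B in ovo replicate 1 it was at -0.69 (limma adjusted p = 2.63e-05), and under total counts alone at -0.71 (limma adjusted p = 0.00189).

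The receptors were not on the list and come from a second list of 72 pathway genes, of which 71 had a row and 51 were tested. HepG2 had 4 of these higher and 11 lower, and Hep3B 9 higher and 15 lower. HuH7 had 15 higher and 5 lower, and PLC/PRF/5 9 higher and 4 lower. The shares of all tested genes called higher and lower were 12.1 and 13% for HepG2, 24.6 and 27.4% for Hep3B, 23.6 and 19.8% for HuH7, and 11.9 and 5.61% for PLC/PRF/5. The 9 interferon ligand genes on it were between 0 and 1.21 CPM in every library and none passed the filter. Of the type I receptor chains, IFNAR1 was called in Hep3B, where it fell (-0.74 ± 0.22, limma adjusted p = 0.00631; -1.67 under total counts alone). IFNAR2 fell in HepG2 by 0.56 ± 0.17 (limma adjusted p = 0.017) and rose in the other lines by 0.43 to 0.75. Those 3 rises were not called under total counts alone, where IFNAR2 in Hep3B was at -0.28. The type III receptor chain IFNLR1 rose in HepG2 (1.08 ± 0.23), HuH7 (1.24 ± 0.23) and PLC/PRF/5 (0.85 ± 0.23), with limma adjusted p values of 0.000983, 0.000147 and 0.0106. Its levels were low, at 4.44 to 6.06 CPM in HepG2 cultures and 8.94 to 19.1 CPM in HepG2 tumours. In PLC/PRF/5 they were lower still, at 0.477 to 0.825 CPM in vitro and 1.34 to 2.49 CPM in ovo.

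In Hep3B the transcript of the upstream kinase JAK1 fell after TMM scaling while IRF9 and STAT2 rose. Neither rise was called under total counts alone (0.11 and 0.13), or with GC content and length trends removed. JAK1 was at -2.91 under total counts alone, and was not examined with those trends removed. JAK1 read 15, 15 and 15.5 CPM in cultures and 5.86, 2.01, 1.04 and 1.85 CPM in tumours (-2.29 ± 0.54, limma adjusted p = 0.00124). Every Hep3B tumour was below every culture. JAK1 was not called in another line, and its interaction was not called (limma adjusted p = 0.191). SOCS3, a feedback inhibitor of JAK kinases, was called in every line. It fell in HepG2 by 0.99 ± 0.25 and in Hep3B by 1.96 ± 0.25, and rose in HuH7 by 2 ± 0.25 and in PLC/PRF/5 by 0.96 ± 0.25. Limma adjusted p values for SOCS3 were 0.00486, 9.73e-07, 1.01e-06 and 0.00915, the last becoming 0.0579 under total counts alone.

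**Figure D3:**
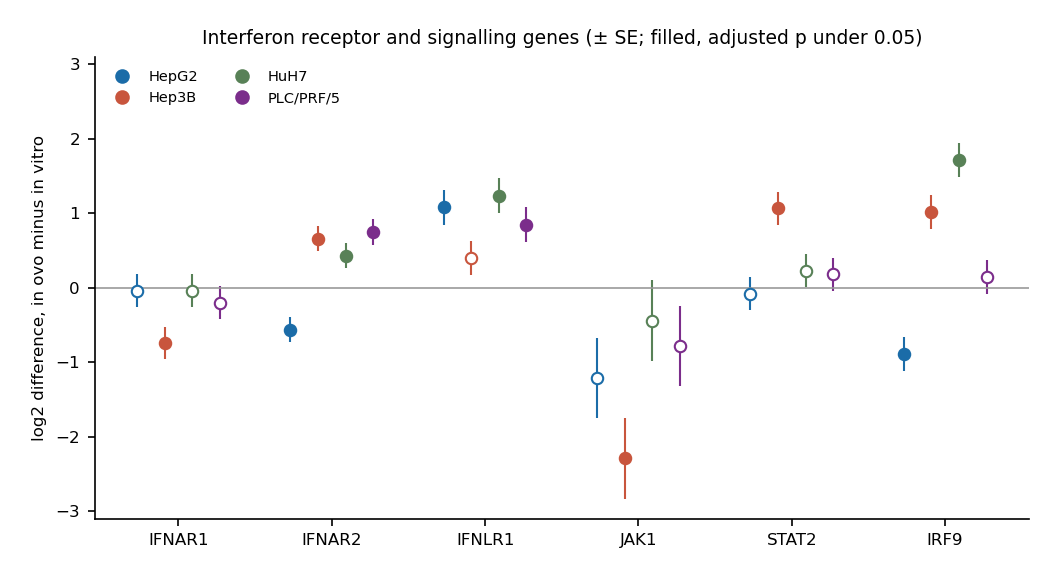
Difference in ovo minus in vitro on the log2(CPM + 1) scale for receptor chains, JAK1, STAT2 and IRF9 in each line, with bars of ± 1 SE and filled points for an adjusted p under 0.05. In Hep3B, JAK1 (-2.29) is below 0 while STAT2 (1.07) and IRF9 (1.02) are above it. Neither of these rises was called under total counts alone.

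ISG15 rose in Hep3B and HuH7, and an enzyme of its pathway was called in each of the 4 lines. ISG15 encodes the ubiquitin-like modifier that is attached to proteins and also secreted. It read 34.6, 32.7 and 33.3 CPM in HuH7 cultures and 75.5, 61.5, 186 and 40.4 CPM in tumours, all above the cultures (1.18 ± 0.35, limma adjusted p = 0.0101). Hep3B cultures read 13.9, 13.1 and 17.2 CPM and tumours 18.7, 40.5, 35.7 and 29.6 CPM, also without overlap (0.99 ± 0.35, limma adjusted p = 0.0226). The Hep3B call was lost under total counts alone (0.05, limma adjusted p = 0.891). It was also lost without in vitro replicate 1 or 2, or in ovo replicate 2 or 3, at limma adjusted p values of 0.0585 to 0.0741. With the trends of GC content and length removed, ISG15, whose amplicon has 67.9% GC, was at 0.27 in HuH7 and 0.22 in Hep3B, called in neither. Without HuH7 in ovo replicate 3 the HuH7 value was 0.76 (limma adjusted p = 0.0482).

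UBE2L6 was called higher in 3 lines. It read 68.1, 72.4 and 73.9 CPM in HepG2 cultures and 103, 140, 127 and 125 CPM in HepG2 tumours. Hep3B went from 13.7, 13 and 17 CPM to 34.1, 53.1, 75.6 and 46.2 CPM, and HuH7 from 19.7, 21.2 and 20.4 CPM to 46.3, 39.4, 50.7 and 27.7 CPM. In these 3 lines every tumour lay above every culture, with differences of 0.77 ± 0.23, 1.73 ± 0.23 and 0.94 ± 0.23 and limma adjusted p values of 0.0164, 2.1e-06 and 0.00272. Without HepG2 in vitro replicate 1, the HepG2 value was 0.74 (limma adjusted p = 0.0644), and under total counts alone the Hep3B value was 0.78. PLC/PRF/5 tumours read 1.68 to 4.07 CPM around cultures of 2 to 2.54 CPM and were not called. USP18, the protease that removes ISG15 and also restrains IFNAR2 signalling, rose in HepG2 from 14.2, 16.5 and 15.9 CPM to 24.1, 24.6, 31.6 and 21.4 CPM, without overlap (0.66 ± 0.2, limma adjusted p = 0.0142). That call was lost under total counts alone (0.44, limma adjusted p = 0.129), without HepG2 in vitro replicate 1 (0.6, adjusted p = 0.0709) and without HepG2 in ovo replicate 3 (0.56, adjusted p = 0.0516). HERC5 fell in PLC/PRF/5, from 21.2, 20.3 and 20.5 CPM to 11.9, 15, 10.4 and 12 CPM (-0.72 ± 0.21, limma adjusted p = 0.017). Leaving out any 1 PLC/PRF/5 culture, or in ovo replicate 3, moved the HERC5 adjusted p to between 0.0528 and 0.0569. The HERC5 call was also lost with edgeR's count test (-0.75, adjusted p = 0.239) and with a pseudocount of 0.25 CPM (-0.75, limma adjusted p = 0.255).

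The 2′-5′ oligoadenylate synthetases, which make the second messenger that activates RNase L, were led by OAS3. OAS3 read 44.7, 55.4 and 48.3 CPM in HepG2 cultures against 70.5, 92.6, 131 and 110 CPM in tumours (0.98 ± 0.26, limma adjusted p = 0.00687). In PLC/PRF/5 it read 139, 110 and 137 CPM against 242, 171, 371 and 275 CPM (0.99 ± 0.26, limma adjusted p = 0.00972). In Hep3B it read 6.07, 4.91 and 3.56 CPM against 11.4, 14.4, 18.4 and 9.94 CPM (1.3 ± 0.26, limma adjusted p = 0.000268). No tumour library overlapped the cultures in these 3 lines. HuH7 stayed at 0.514 to 1.85 CPM in both conditions, and its response differed from the mean of the others by -1.13 ± 0.3 (limma adjusted p = 0.0083). The Hep3B call was lost under total counts alone (0.42, limma adjusted p = 0.0594), and the PLC/PRF/5 call without in vitro replicate 2 (0.9, limma adjusted p = 0.0545). OAS1, OASL and IFIT2 were named after their values were seen. OAS1, the shorter synthetase, was called higher in Hep3B at low levels, from 0.111 to 0.264 CPM in vitro to 0.693 to 3.11 CPM in ovo (1.14 ± 0.29, limma adjusted p = 0.002). That call was lost with GC content and length trends removed (0.18, limma adjusted p = 0.51) and with a pseudocount of 5 CPM (0.37, limma adjusted p = 0.108), and was at 3.18 with edgeR's count test. OASL, a family member without synthetase activity, fell in PLC/PRF/5 from 8.9, 11.1 and 6.71 CPM to 2.33, 3.53, 2.72 and 0.989 CPM (-1.58 ± 0.18, limma adjusted p = 5.45e-07).

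**Figure D4:**
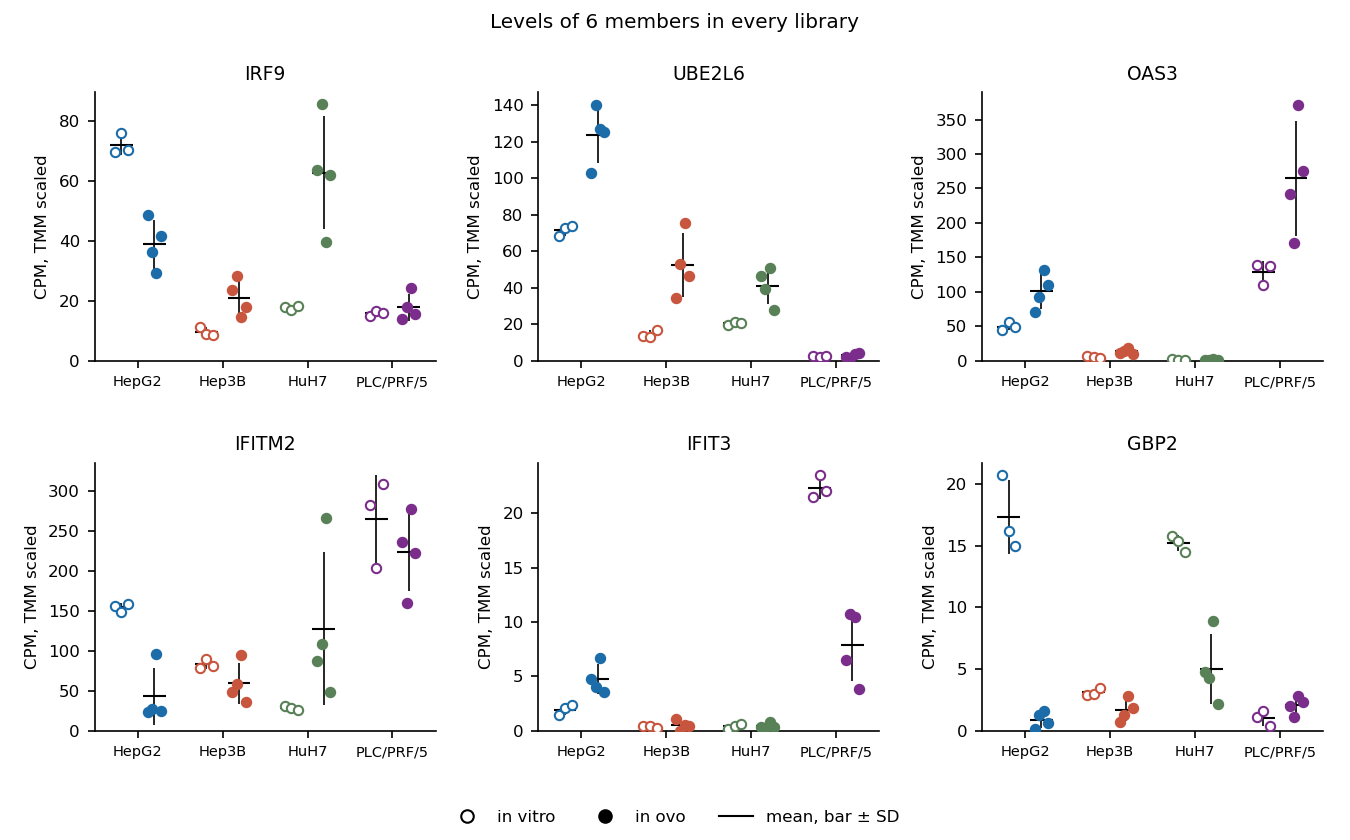
Level of 6 genes in every library, in CPM after TMM scaling on linear axes that start at 0, with open points for cultures, filled points for in ovo tumours, a line for the group mean and a bar of ± SD (n = 3 in vitro, n = 4 in ovo). IRF9 is lower in ovo in HepG2 and higher in Hep3B and HuH7, and GBP2 is lower in ovo in HepG2 and HuH7.

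Of the IFIT genes, whose proteins bind viral RNA lacking the host cap methylation, IFIT1, IFIT2 and IFIT3 fell in PLC/PRF/5, the line with their highest levels in vitro. IFIT5 did not pass the expression filter. IFIT1 read 7.93, 10.5 and 10.4 CPM in PLC/PRF/5 cultures and 1.01, 3.61, 1.81 and 1.1 CPM in tumours (-1.95 ± 0.28, limma adjusted p = 1.41e-05). IFIT2 went from 15, 17.1 and 14.5 CPM to 2.94, 10.8, 5.1 and 2.09 CPM (-1.6 ± 0.3, limma adjusted p = 0.000386). IFIT3 went from 21.5, 23.5 and 22.1 CPM to 6.48, 10.7, 10.5 and 3.85 CPM (-1.48 ± 0.27, limma adjusted p = 0.000269). All 4 tumours were below all 3 cultures for each of these genes, and the 3 calls held under each of the 20 alternatives with a value. In HepG2 the direction was the opposite. IFIT1 rose from 1.69, 1.36 and 0.667 CPM to 5.96, 4.64, 1.38 and 4.15 CPM (1.09 ± 0.28, limma adjusted p = 0.00507), with the tumour numbered 3 inside the range of the cultures. IFIT3 rose from 1.41, 2.1 and 2.34 CPM to 4.77, 4, 6.7 and 3.53 CPM, without overlap (0.95 ± 0.27, limma adjusted p = 0.0106). These HepG2 calls were lost without in vitro replicate 3 for IFIT1 (limma adjusted p = 0.0527) and without in vitro replicate 1 for IFIT3 (limma adjusted p = 0.0736). The interaction had limma adjusted p values of 7.49e-06 for IFIT1 and 0.000121 for IFIT3. In Hep3B and HuH7 all 3 genes stayed between 0 and 1.06 CPM. With GC content and length trends removed, IFIT1, IFIT2 and IFIT3 were called higher in Hep3B at these low levels (0.84, 0.9 and 0.88). IFIT1 and IFIT2 were then also called higher in HuH7 (0.66 and 0.86).

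The IFITM genes, which encode small membrane proteins that block virus entry at endosomes, included 2 called in opposite directions in HepG2 and HuH7, IFITM1 and IFITM2. IFITM2 read 156, 148 and 159 CPM in HepG2 cultures and 23.8, 27.4, 96.6 and 25 CPM in tumours, a fall of 2.09 ± 0.43 without overlap (limma adjusted p = 0.000742). In HuH7 it went from 31.6, 28 and 26.5 CPM to 86.7, 109, 266 and 48 CPM, a rise of 1.84 ± 0.43 without overlap (limma adjusted p = 0.0016). In each line the in ovo library numbered 3 gave the highest IFITM2 level of the 4 tumours. Without these libraries, the values were -2.51 in HepG2 and 1.39 in HuH7. Hep3B and PLC/PRF/5 were not called for IFITM2, at -0.56 ± 0.43 and -0.25 ± 0.43. IFITM2 in Hep3B was called lower without the in ovo libraries numbered 3 (-0.87, limma adjusted p = 0.002). It was also called lower under total counts alone (-1.52, limma adjusted p = 0.000279) and with GC content and length trends removed (-1.63, limma adjusted p = 0.000157).

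IFITM3 rose in HuH7 from 1.52, 2.08 and 1.21 CPM to 9, 11.3, 22.3 and 4.37 CPM, without overlap (2.11 ± 0.42, limma adjusted p = 0.000306). HuH7 thereby stayed far below the other lines, whose cultures held 167 to 268 CPM. In HepG2 and Hep3B the IFITM3 values were -0.93 ± 0.42 and -0.76 ± 0.42, not called. Without the in ovo libraries numbered 3 they became -1.22 (limma adjusted p = 0.00039) and -1.24 (limma adjusted p = 0.000164). IFITM1 fell in HepG2 from 4.65, 5.92 and 4.89 CPM to 0.745, 1.28, 1.77 and 0.614 CPM (-1.58 ± 0.36, limma adjusted p = 0.00189). It was called higher in HuH7 (1.18 ± 0.36, limma adjusted p = 0.0114), from 0 to 0.659 CPM in vitro to 0.6 to 4.55 CPM in ovo, where the groups overlapped. The IFITM1 call in HuH7 was lost without in vitro replicate 1 (limma adjusted p = 0.0562) or in ovo replicate 3 (limma adjusted p = 0.0548). It was also lost with GC content and length trends removed (0.26, limma adjusted p = 0.357), with a pseudocount of 5 CPM (0.4, limma adjusted p = 0.0705) and with HuH7 fitted alone (1.2, limma adjusted p = 0.0603). The 3 IFITM amplicons lie outside coding sequence.

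The other called effectors and sensors were called in 1 or 2 lines each. Of these, GBP2, BST2, EPSTI1, MX2, DDX58, IFIH1 and IFI6 were named after their values were seen. GBP2 had the lowest difference of the 34 genes in HepG2 and in HuH7. It read 20.7, 16.2 and 15 CPM in HepG2 cultures and 0.149, 1.28, 1.58 and 0.614 CPM in tumours (-3.32 ± 0.33, limma adjusted p = 3.73e-08), and fell in HuH7 from 14.5 to 15.8 CPM to 2.14 to 8.93 CPM (-1.54 ± 0.33, limma adjusted p = 0.000721). BST2 rose in Hep3B from 0.924, 0.818 and 1.11 CPM to 4.58, 5.54, 10.1 and 9.02 CPM (2.03 ± 0.2, limma adjusted p = 1.95e-08). BST2 in Hep3B was at 1.27 under total counts alone and at 1.04 with GC content and length trends removed, and called in both. Before TMM scaling this was a mean of 4.17 CPM in ovo. The highest median shares measured for the other 3 lines would supply 2.13 CPM of it. As these shares are medians over genes, 2.13 CPM is not an upper limit for BST2. The HepG2 share was not subtracted from Hep3B, so the subtraction does not bear on that part. EPSTI1, an interferon-response gene of epithelial cells, rose in HuH7, from 0.405, 0.439 and 0.549 CPM to 2.96, 3.87, 2.36 and 3.26 CPM (1.48 ± 0.12, limma adjusted p = 5.55e-10). The response of EPSTI1 in HuH7 differed from the mean of the other lines by 1.41 ± 0.14 (limma adjusted p = 2.13e-08).

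MX1, a GTPase that blocks influenza and other viruses, was called higher in HuH7 (1.03 ± 0.37, limma adjusted p = 0.0256), from 1.11, 0.987 and 0.879 CPM to 1.8, 3.33, 8.6 and 1.37 CPM. That call was lost without any 1 of the 3 HuH7 cultures or without in ovo replicate 3, at limma adjusted p values of 0.05 to 0.127, and with GC content and length trends removed (0.72, limma adjusted p = 0.0947). MX2 fell in HepG2 (-0.58 ± 0.19, limma adjusted p = 0.0238) and HuH7 (-0.7 ± 0.19, limma adjusted p = 0.00453), and edgeR's count test called neither (adjusted p values of 0.226 and 0.118). The HepG2 call for MX2 was also lost without in vitro replicate 1 or 3 or in ovo replicate 3 (limma adjusted p values of 0.143, 0.0598 and 0.0854). With GC content and length trends removed MX2 was at -0.33 in HepG2 and -0.19 in HuH7, called in neither. IFI35, an interferon-induced leucine zipper protein, fell in PLC/PRF/5 from 27.7, 25.9 and 30 CPM to 8.61, 10.2, 14.8 and 12 CPM (-1.24 ± 0.24, limma adjusted p = 0.000477). The RNA sensor genes DDX58 (RIG-I) and IFIH1 (MDA5) were each called lower in 1 line. DDX58 fell in PLC/PRF/5 from 6.07, 9.54 and 8.36 CPM to 2.53, 4.54, 1.36 and 2.42 CPM (-1.32 ± 0.33, limma adjusted p = 0.00633). IFIH1 fell in Hep3B from 1.72, 2.05 and 1.89 CPM to 0.852, 0.504, 0 and 0.693 CPM (-0.97 ± 0.22, limma adjusted p = 0.00105). With GC content and length trends removed, IFIH1 in Hep3B was at 0.33 and not called. Its amplicon has 41.5% GC, the lowest of the 34.

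IFI27 and IFI6, encoding small mitochondrial proteins of one family, were read at low levels. IFI27 fell in HepG2 from 1.41, 1.73 and 1.33 CPM to 0.447, 0.16, 0.197 and 0.307 CPM (-0.96 ± 0.27, limma adjusted p = 0.0103). In PLC/PRF/5 it was called higher, from 2.64, 1.72 and 3.18 CPM to 2.74, 4.12, 11.9 and 7.91 CPM (0.99 ± 0.27, limma adjusted p = 0.0128), with overlap. The PLC/PRF/5 call was lost without in vitro replicate 2 (limma adjusted p = 0.0918) or in ovo replicate 3 (limma adjusted p = 0.0568), and with GC content and length trends removed (0.75, limma adjusted p = 0.0804). Limma called IFI6 in Hep3B, from 0.792, 0.955 and 1.11 CPM to 6.6, 3.78, 4.66 and 3.93 CPM (1.53 ± 0.56, limma adjusted p = 0.0244). That call was lost under total counts alone (limma adjusted p = 0.164), and without in vitro replicate 1 or 2 or in ovo replicate 1 (limma adjusted p values of 0.0696, 0.0577 and 0.0526). The other 3 lines had IFI6 differences of 1.03 to 1.53 with limma adjusted p values of 0.0589 to 0.185, and the interaction was not called. edgeR and DESeq2 called IFI6 in HuH7 (2.82 and 2.99) and in PLC/PRF/5 (2.92 and 2.83) as well.

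Averaged over the 4 lines, 11 of the 34 genes were higher in ovo and 7 lower, where 33.7% and 32.6% of all tested genes were (66.3% in either direction). The higher genes were led by IFI6 (1.33 ± 0.28), UBE2L6 (0.9 ± 0.12), ISG15 (0.81 ± 0.18) and OAS3 (0.81 ± 0.13), with limma adjusted p values of 0.00024, 6.82e-07, 0.000363 and 1.35e-05. The lower were led by GBP2 (-1.23 ± 0.17, limma adjusted p = 1.21e-06) and IRF1 (-0.8 ± 0.2, limma adjusted p = 0.00109). The split depended on the scaling, with 6 higher and 11 lower under total counts alone. The share of all tested genes in the mean was not taken for that scaling.

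Among other interferon-induced genes of the second list, 24 of 27 were tested. HepG2 had 3 of them higher against 6 lower, Hep3B 5 against 6, PLC/PRF/5 5 against 1, and HuH7 7 against 3, to be read against the same shares of all tested genes. SP110, a nuclear body protein, rose in all 4 lines by 0.99 to 1.15, with limma adjusted p values of 0.00142 to 0.0133, although in Hep3B it was at 0.19 and not called under total counts alone. TNFSF10, the death ligand TRAIL, rose in HepG2 (2.23 ± 0.37), Hep3B (4.17 ± 0.37) and HuH7 (1.17 ± 0.37). Hep3B cultures held 0.264, 0.955 and 0.668 CPM of TNFSF10, and Hep3B tumours 23.3, 30, 50.7 and 16.6 CPM. LGALS3BP, a secreted glycoprotein, fell in HepG2 by 1.18 ± 0.38 and rose in HuH7 by 2.16 ± 0.38. The HepG2 tumour numbered 3 held 227 CPM against 706 to 848 CPM in the others, and without the libraries numbered 3 the HepG2 value was -0.69 (limma adjusted p = 0.0125). The interferon gamma target list had 1 tested gene, the chemokine CXCL10, which fell in Hep3B from 7.92, 5.45 and 6.79 CPM to 1.7, 2.27, 2.33 and 2.31 CPM (-1.28 ± 0.12, limma adjusted p = 8.91e-09; -1.93 under total counts alone).

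The promoters of 4 genes that were called in different lines and directions are shown to compare their response elements. Windows of 300 bases around RefSeq start sites (250 before, 50 after, GRCh38.p14) were searched on both strands for GAAA, any 2 bases and GAAA, the core of the interferon-stimulated response element, with overlapping matches allowed. The core was in 3.57% of 35116 windows and in 25 of 43 windows of the listed genes (58.1%). Counted by gene, 21 of the 32 genes with a window held it. Capitals mark the matches, which begin and end with TTTC where they lie on the opposite strand. EPSTI1 is at chr13:42992252-42992321 (minus strand), IFI27 at chr14:94110598-94110680 (plus), HERC5 at chr4:88456964-88457084 (plus) and IFI6 at chr1:27672246-27672378 (minus), each printed 5′ to 3′ in the direction of the gene and upstream of its start.
EPSTI1: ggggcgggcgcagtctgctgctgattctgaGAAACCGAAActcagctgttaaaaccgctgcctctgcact
IFI27: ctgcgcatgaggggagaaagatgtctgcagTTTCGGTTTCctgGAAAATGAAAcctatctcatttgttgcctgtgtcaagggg
HERC5: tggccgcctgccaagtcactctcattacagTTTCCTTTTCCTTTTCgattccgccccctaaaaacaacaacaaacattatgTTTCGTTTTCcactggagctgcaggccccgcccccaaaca
IFI6: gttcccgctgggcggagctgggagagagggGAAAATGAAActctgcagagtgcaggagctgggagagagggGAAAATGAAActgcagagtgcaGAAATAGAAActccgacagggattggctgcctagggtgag
EPSTI1 holds 1 match, IFI27 has 2, and HERC5 and IFI6 have 3 each, of which the first 2 in HERC5 overlap. EPSTI1 rose in HuH7, HERC5 fell in PLC/PRF/5, IFI6 rose in Hep3B, and IFI27 fell in HepG2 and rose in PLC/PRF/5. Among genes with a window, the core was in 3 of 4 that rose and 2 of 3 that fell in HepG2, in 4 of 8 and 1 of 2 in Hep3B, and in 2 of 2 and 3 of 5 for PLC/PRF/5. In HuH7 it was in 5 of 7 that rose, and neither gene that fell had a window. IRF9 and UBE2L6, each called in 3 lines, had no match in their windows, while OAS3 had 2. A match describes the letters of the window and shows no binding.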

How the data were processed

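RNA from 28 libraries (4 lines, 3 in vitro and 4 in ovo each) was read with DriverMap targeted amplicons from 500 ng of total RNA, per the labels' protocols. Cultures went through a mini and tumours through a midi RNeasy kit, so kit and condition cannot be told apart. The submitters' processing notes name hg38; aligner, counting method and filters: not given in the sources used here. Each deposited column is a scaled signal, with 1 value an amplicon and the same sum in every library. At least 99.9684% of values per library lay within 0.01 of a whole read, with a largest departure of 0.114, and those reads were recovered. They carry no molecular identifiers, so floors cover counting error only. The main test was limma 3.58.1 (trended variance, R 4.3.3) on log2(CPM + 1) after TMM (edgeR 4.0.16), the plan's choice for scaled values. A count test was planned as the main test only for raw counts. filterByExpr (10 reads) kept 13100 of 18961 amplicons, and 1 fit to 8 groups left 20 residual degrees of freedom. On the recovered reads edgeR's quasi-likelihood test and DESeq2 1.42.0 were run as alternatives. No replicate pair agreed within sampling noise (lowest chi-square per gene 1.65, where noise alone gives about 1). Levels are printed for key genes with a group mean of at least 10 CPM, for the 3 highest and 3 lowest called differences per line at that level, and for genes called in opposite directions; other listed genes are marked as named after their values were seen. Of the pathway list, IFNAR1, IFNAR2, IFNLR1, JAK1 and up to 3 called genes per group and line with the largest differences could be named. The genes and lists were chosen with earlier results of these data known. The models were tested on simulated data. Amplicons were matched exactly to GENCODE 29, and promoters are those of RefSeq. 1 gene of the pathway list is not reported here.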

Additional observations from a re-analysis of the deposited data

Results flagged for a closer look

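In 4 of 75 in ovo groups of 4 libraries whose highest level was at least 3 CPM, 1 library stood far from the other 3, where chance gives about 1 in 20. All 4 were libraries numbered 3. ISG15 was at 64.1 CPM in HepG2 in ovo replicate 3, against 26.2 to 32.5 CPM in the others. IFI6 was at 28.8 CPM in PLC/PRF/5 in ovo replicate 3, against 1.6 to 3.74 CPM. STAT2 was at 10.5 CPM in HuH7 in ovo replicate 3, against 21.9 to 23.7 CPM. IFITM2 was at 96.6 CPM in HepG2 in ovo replicate 3, against 23.8 to 27.4 CPM.

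The difference in ovo minus in vitro itself differed between lines for 21 genes, by limma's test of the interaction with Benjamini-Hochberg adjustment over all tested genes. The adjusted p was 1.05e-07 for EPSTI1, 2.42e-06 for GBP2, 3.36e-06 for IRF9, 4.77e-06 for BST2, 7.49e-06 for IFIT1 and 1.22e-05 for OASL. It was 0.000121 for IFIT3, 0.000134 for IFITM2, 0.000373 for IFITM1, 0.000471 for IFITM3, 0.00108 for IFIT2 and 0.00177 for IFI27. For the others it was 0.004 for OAS1, 0.00446 for UBE2L6, 0.0151 for IFIH1, 0.0197 for IFI35, 0.0228 for OAS3, 0.0231 for STAT2, 0.0272 for MX2, 0.0389 for IRF1 and 0.048 for DDX58.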

How the results depend on the processing

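Of 40 gene and line calls, all were kept with DESeq2's size factors, with no filter, under the replicate block, without the 4 in ovo libraries numbered 3 and with the shares of another line subtracted. Total counts alone kept 34, pseudocounts of 0.25 and 5 CPM kept 36 and 35, edgeR 37 and DESeq2's Wald test 39. Removing the GC content and length trends, an alternative chosen after seeing the data like the subtraction, kept 29. Each line fitted alone kept 31 of 38 with a value, and the stricter filter (at least 10 CPM in 3 libraries, 22 genes) kept 33 of 33. Counts of genes called moved as follows, with the share of all tested genes under the same setting where it was taken. Total counts alone gave 3 higher and 9 lower in Hep3B, where 9.2% and 52.1% of all tested genes were. The mean of lines then had 6 higher and 11 lower. The stricter filter gave 1 lower in Hep3B, 1 higher in PLC/PRF/5, 4 lower in the mean and 21 that differ between cultures. The GC and length correction gave 8 higher in HepG2, 1 lower in HuH7 and 1 higher in PLC/PRF/5. It also gave 20 new calls. In Hep3B, IFIT1, IFIT2, IFIT3, MX2, SAMD9L and PARP9 became called higher, while ISG15, OAS1, STAT2 and IRF9 lost that call. In HuH7, IFIT1, IFIT2, IFIH1, SAMD9L and PARP9 became called higher, while ISG15, MX1 and IFITM1 lost it. edgeR gave 1 lower in HuH7 (15% of all tested genes) and 4 lower in the mean. DESeq2's Wald test gave 4 lower in the mean, and each line alone 1 lower in HuH7. PLC/PRF/5 had 1 and 4 higher with pseudocounts of 0.25 and 5 CPM. Without the libraries numbered 3, Hep3B had 5 lower, where 32.3% of all tested genes were. Replicate numbers do not pair cultures with tumours of a line, with correlations of same-numbered libraries from -0.095 to 0.457. Between lines, the in ovo libraries numbered 3 deviated together (0.116 to 0.862). The ranges were -0.2 to 0.243, -0.139 to 0.542 and 0.032 to 0.618 for numbers 1, 2 and 4. With the replicate block, PLC/PRF/5 had 5 higher and 8 calls were new. That block gave cultures and tumours of the same number 1 shared effect, so it does not test a deviation of in ovo libraries alone. Leaving out 1 library gave 2 to 5 higher and 5 to 7 lower in HepG2, 6 to 9 and 2 to 4 in Hep3B, 6 to 9 and 2 to 3 in HuH7, and 0 to 4 and 6 to 8 in PLC/PRF/5. The mean of lines then ran from 9 to 11 higher and 6 to 9 lower, the interaction from 18 to 22, and differences between cultures from 32 to 34. Reversed values under the GC and length correction were 0.9 for IFIT2 and 0.33 for IFIH1 in Hep3B, and 0.71 for IFIH1 and 0.73 for PARP9 in HuH7. Under total counts alone they were -0.84 for IFI35 and -0.55 for USP18 in Hep3B. The causes were not tested. Genes near the level of 3 reads are limited by depth.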
